A study of Sparus aurata with 8 samples.

Results

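The genes examined were those that encode the core and linker histones of the gilthead seabream (*Sparus aurata*), a marine teleost. Members were taken from the count table by their annotation: a feature was kept when it was classed as protein-coding and its product name began with histone H1, H2A, H2B, H3 or H4 or named a core histone of the macro type. This rule found 35 features among 31501 protein-coding features and 197399 features in all. Of these, 33 encode a histone (4 linker histones H1, 10 H2A, 2 macro-H2A, 6 H2B, 3 H3 and 8 H4 genes) and 2 are enzymes or regulators named for a histone, which are described separately. The table gives product names and no gene symbols, and none of the 35 identifiers (0 matched) was found in the RefSeq gene table at hand, so each gene is given by its identifier.

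RNA was sequenced from haploid germ cells (HGC), which are secondary spermatocytes and spermatids sorted from the testis by flow cytometry, and from ejaculated spermatozoa (SPZ_EJ), stripped from the males by gentle pressure on the abdomen. The fish were adult males of the reproductive season with no treatment or genotype named in the labels, and each group has 4 libraries, each from a pool of 3 fish. The study's text can be read as 1 set of males behind both groups, but no label ties an HGC pool to an SPZ_EJ pool. The comparison asks how histone transcripts differ between germ cells before and after they become spermatozoa. In bulk libraries of this kind, fewer cells of a type and less RNA per cell cannot be told apart. The study reports high RNA integrity for HGC and low integrity for SPZ_EJ, which it calls typical of spermatozoa. The parts of RNA integrity and of group in a difference cannot be told apart either.

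Core histones H2A, H2B, H3 and H4 form the protein spool of the nucleosome, and linker histone H1 binds the DNA where it enters and leaves that spool. Replication-dependent histone genes are transcribed mainly in S phase, and their mRNAs usually end in a stem-loop in place of a poly(A) tail, whereas replacement variants such as macro-H2A and many linker histones of non-dividing cells are polyadenylated. In spermiogenesis the chromatin is compacted, and in many animals, though not in all fishes, histones are then replaced by protamines or similar basic proteins. The libraries were primed with oligo-dT, so they count histone RNA that carries a poly(A) tail or is primed at an internal stretch of adenines, and stem-loop mRNAs are counted only to that extent.

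The libraries held 15395220 to 30645027 counts. Levels are given as CPM, the count of a gene relative to the library total after TMM scaling, and a log2 fold change is the level in SPZ_EJ over that in HGC, so that positive values are higher in SPZ_EJ. Differences were tested by the quasi-likelihood method of edgeR, p-values were adjusted by Benjamini-Hochberg over the 21375 features that passed the filter on low counts, and a gene was called at an adjusted p below 0.01 with an absolute log2 fold change above 1. Lengths were not available, so levels are compared between libraries and not between genes. Of all 15302 tested protein-coding features, 31.9% fell and 23.9% rose in SPZ_EJ, and the counts of the marker lists are to be read beside these shares. Among marker lists, 24 of 31 tested meiotic and spermatid genes fell in SPZ_EJ and 1 rose. Their summed level was 10520 to 14964 CPM in HGC and 336 to 799 CPM in SPZ_EJ. Leukocyte markers rose for 19 of 21 tested genes, from a summed level of 530 to 685 CPM in HGC to 3168 to 7793 CPM in SPZ_EJ, highest in SPZ_EJ replicate 1. Erythrocyte markers fell for 3 of 4 tested genes (23.2 to 682 CPM in HGC and 9.55 to 26.5 CPM in SPZ_EJ), and the 1 tested testis somatic gene was not called. Libraries SPZ_EJ 3 and 4 stood apart from the others: the oocyte transcription factor FIGLA (Saurata1B051229) reached 10.7 and 27.6 CPM there and at most 0.975 CPM elsewhere, and growth differentiation factor 9 (Saurata1B054499) stood at 26 and 35.1 CPM there and at most 9.89 CPM elsewhere. Of the 4 tested members of the oocyte list, 3 were lower in SPZ_EJ, and the median log2 fold change was -2.50. These were the vitellogenin genes Saurata1B025689 and Saurata1B008300 and an oocyte zinc finger gene, all lower in SPZ_EJ 3 and 4 than in HGC. Growth differentiation factor 9, the remaining tested member, was not called (1.21, adjusted p = 0.042 by edgeR). No member was named for the zona pellucida, whereas the study reports transcripts resembling zona pellucida proteins as highly upregulated in SPZ_EJ. The untested vitellogenin features Saurata1B050649, Saurata1B045673 and Saurata1B030368 had 5, 3 and 4 counts in SPZ_EJ 4 and at most 1 count in any other library. The list of proliferation markers, of which 5 of 13 tested genes fell, summed to 1247 and 2137 CPM in SPZ_EJ 3 and 4, to 316 and 414 CPM in SPZ_EJ 1 and 2 and to 3906 to 5801 CPM in HGC. Mitotic cyclins of the B type made up much of these sums, and the 12 S-phase genes without them summed to 664 and 960 CPM, to 275 and 305 CPM and to 1145 to 1381 CPM. From RNA profiles and microscopy, the study judged its sperm samples almost devoid of non-sperm cells. The part of any cells that carry these markers in the histone values was not tested. For several single genes the fold change is also given without SPZ_EJ 3 and 4, whereas class sums and shares were not recomputed without them.

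Of the 33 histone genes, 24 passed the filter on low counts. Of these 24, 2 rose in SPZ_EJ, 4 fell and 18 did not pass the test. Among 15302 tested protein-coding features, 23.9% rose, 31.9% fell and 55.8% were called in either direction. The 8 libraries separated into their groups without overlap for 5 of the 24 histone genes, whereas this was so for 65.6% of the protein-coding features. The median log2 fold change of the 24 genes was 0.33, with 14 genes above 0 and 10 below, beside a median of -0.29 over tested protein-coding features and 0.45 over all tested features. Scaling by library size only moved these medians together, to 1.02, 0.46 and 1.19, and gave 4 higher and 3 lower calls. Of the calls, 3 of the 4 falls were linker histones, the fourth was a macro-H2A gene, and the rises were an H2A and an H4 gene.

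**Figure D1:**
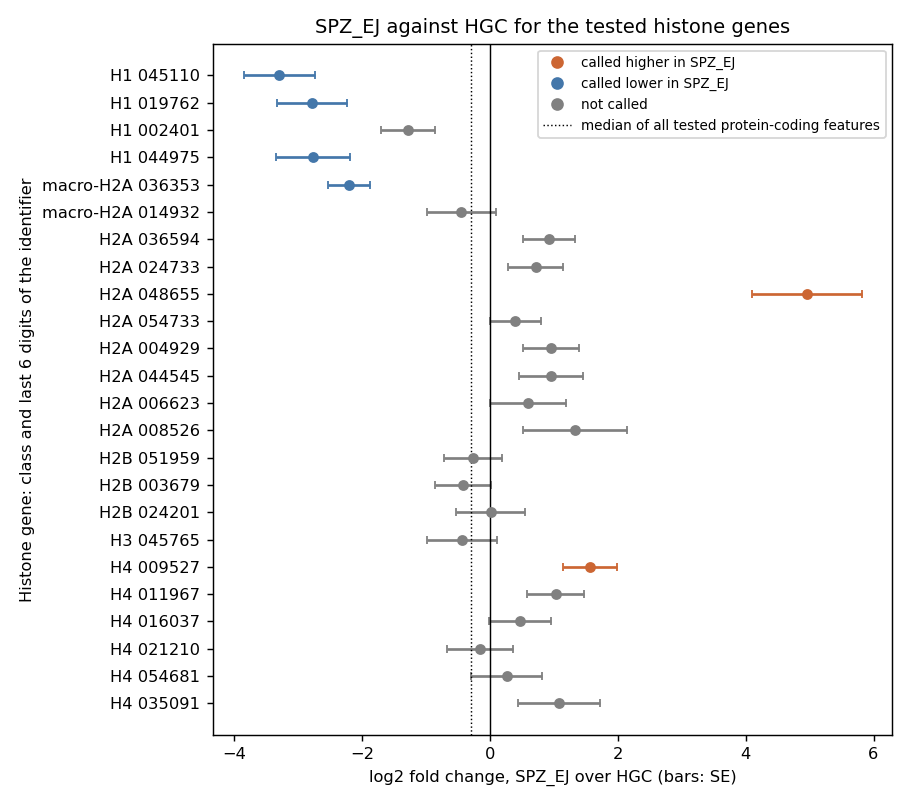
Log2 fold change of SPZ_EJ over HGC for the 24 tested histone genes, grouped by class, with bars of 1 SE and the dotted line at the median of all tested protein-coding features. All 4 linker histones lie below -1, all 8 H2A genes lie above 0, the H2B and H3 genes lie between -0.44 and 0.01, and the H4 genes lie between -0.16 and 1.57.

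Of the 4 linker histone genes 3 fell in SPZ_EJ, and the last had a negative log2 fold change that did not pass. Histone H1 Saurata1B045110 held most of the counts of the 33 histone genes and was among the 20 most abundant features of the whole table. Its level was 15607, 7363, 10727 and 10571 CPM in HGC 1 to 4 and 396, 1966, 1448 and 710 CPM in SPZ_EJ 1 to 4. Every HGC library was above every SPZ_EJ library, and SPZ_EJ 1 was lowest. The mean was 11067 ± 3401 CPM in HGC and 1130 ± 711 CPM in SPZ_EJ (SD, n = 4 each), a 9.79-fold lower level, and the log2 fold change was -3.29 (SE 0.56, adjusted p = 0.00033 in edgeR). The lowest library still held 11364 counts of this gene.

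The next H1 gene by counts, Saurata1B019762, stood at 789, 233, 571 and 611 CPM in HGC 1 to 4 and at 23.1, 133, 106 and 58.9 CPM in SPZ_EJ 1 to 4. As for the first H1 gene, HGC 2 was the lowest and HGC 1 the highest HGC library, SPZ_EJ 1 was the lowest and SPZ_EJ 2 the highest SPZ_EJ library, and the groups did not overlap. The log2 fold change of Saurata1B019762 was -2.78 (SE 0.55, adjusted p = 0.0009 by edgeR). For both genes the call held in each alternative that gave a value, with log2 fold changes of -3.94 to -2.72 and -3.43 to -2.20.

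The remaining H1 genes had far fewer counts, and in both the groups overlapped. Saurata1B044975, which lies outside the rule for named genes and is named here after its values were seen because it was called, stood at 34.6, 8.39, 46.9 and 61.3 CPM in HGC and at 4.18, 9.29, 5.97 and 2.83 CPM in SPZ_EJ. HGC 2 was below SPZ_EJ 2, and the other HGC libraries were above all SPZ_EJ libraries. Its log2 fold change was -2.77 (SE 0.58, adjusted p = 0.0014 by edgeR), and the call was lost without SPZ_EJ 3 and 4 (log2 fold change -2.39, adjusted p = 0.017). Saurata1B002401 stood at 46.5, 39.2, 31.1 and 23 CPM in HGC and at 7.97, 16.5, 24.9 and 8.09 CPM in SPZ_EJ. Here SPZ_EJ 3 lay above HGC 4, and the log2 fold change of -1.28 (SE 0.42, adjusted p = 0.018 by edgeR) did not pass the threshold. It passed in edgeR without HGC 4 (-1.65, adjusted p = 0.0084), without SPZ_EJ 3 (-1.64, adjusted p = 0.0062) and with no filter (-1.80, adjusted p = 0.0083). Paralogs can share reads that the counting divided between them, so the sum over the class was also taken. That sum was 7644 to 16478 CPM in HGC and 431 to 2124 CPM in SPZ_EJ, 9.51-fold lower.

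The composition of the counted RNA of the 33 histone genes differed between HGC and SPZ_EJ, which is a description of sums over the members with no test. The 4 H1 genes took 1.12%, 0.622%, 0.894% and 0.976% of all counts in HGC 1 to 4 and 0.0699%, 0.183%, 0.178% and 0.111% in SPZ_EJ 1 to 4. The 29 core histone genes took 0.0282%, 0.0221%, 0.0253% and 0.0206% of all counts in HGC and 0.0265%, 0.0334%, 0.0784% and 0.0737% in SPZ_EJ. The H1 shares did not overlap between groups, whereas the core shares of SPZ_EJ 1 and 2 lay near those of HGC and those of SPZ_EJ 3 and 4 lay above all others. Of the 12503 and 11341 core counts in SPZ_EJ 3 and 4, 1461 and 3538 came from 1 H2A gene, Saurata1B018265. The core and H1 shares were not computed without it. Of the counts of the 33 histone genes, H1 held 97.5%, 96.6%, 97.2% and 97.9% in HGC and 72.5%, 84.6%, 69.4% and 60.1% in SPZ_EJ. Exact binomial intervals of 95% reached at most 0.677 percentage points to either side of these shares and cover counting error only. Expressed without any scaling between libraries, each core histone count was accompanied by 28.1 to 47.4 H1 counts in HGC (mean 37.6 ± 8.06, SD, n = 4) and by 1.51 to 5.47 in SPZ_EJ (2.97 ± 1.73). Within the H1 class Saurata1B045110 stood at 93.8% to 96.3% of H1 counts in HGC and 91.1% to 92.5% in SPZ_EJ. A further 8 features named histone with no class are outside these shares and ratios, which were not computed with them. Among them, Saurata1B001851 alone had 10508 to 15707 counts in HGC, where the 29 core genes together had 4090 to 7765. In SPZ_EJ it had 1044 to 2163 counts and the core genes 4697 to 12503.

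**Figure D2:**
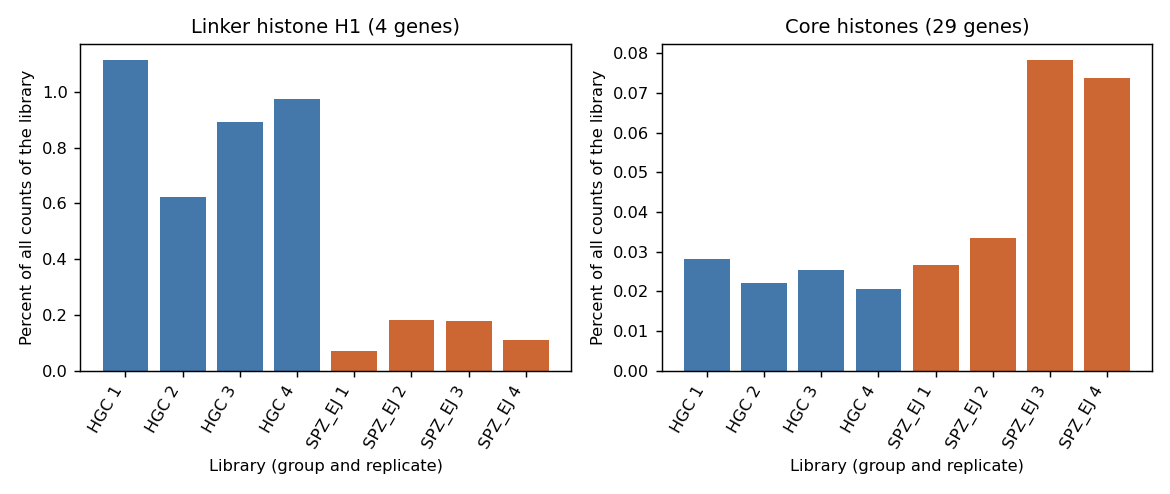
Percent of all counts of each library held by the 4 linker histone genes (left) and the 29 core histone genes (right, with its own scale), 1 bar per library, both axes starting at 0. The H1 share is 0.622% to 1.12% in HGC and 0.0699% to 0.183% in SPZ_EJ, and the core share is raised in SPZ_EJ 3 and 4 (0.0784% and 0.0737%).

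Among H2A genes, all 8 tested had a positive log2 fold change, from 0.40 to 4.96 with a median of 0.94, but only 1 was called. The tested H2A gene with the most counts was Saurata1B036594, at 43.4, 28.2, 36.8 and 28.2 CPM in HGC and 23.6, 69.3, 107 and 59.0 CPM in SPZ_EJ. SPZ_EJ 2, 3 and 4 were above all HGC libraries and SPZ_EJ 1 was below them all, and the log2 fold change of 0.92 (SE 0.41, adjusted p = 0.063 by edgeR) did not pass. It passed in 3 of 19 alternatives. These were edgeR without SPZ_EJ 1 (1.06, adjusted p = 0.0083), limma-voom (1.20, adjusted p = 0.0051) and edgeR under scaling by library size only (1.57, adjusted p = 0.0034). In edgeR the value was 0.53 (adjusted p = 0.29) without SPZ_EJ 3 and 4 and 0.35 (adjusted p = 0.52) with no filter. Saurata1B024733 repeated this arrangement at 30.8, 15.6, 22.5 and 20.1 CPM in HGC against 12.8, 40.1, 60.8 and 32.3 CPM in SPZ_EJ. Its log2 fold change was 0.71 (SE 0.43, adjusted p = 0.16 by edgeR), and 0.34 (adjusted p = 0.54) without SPZ_EJ 3 and 4. The positive sign of all 8 genes held under each scaling tried, and 7 of 8 were positive without a filter or without SPZ_EJ 3 and 4.

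The H2A gene that rose was Saurata1B048655. It had 6, 3, 1 and 25 counts in HGC 1 to 4 and 723, 123, 258 and 376 counts in SPZ_EJ 1 to 4, which correspond to 0.429, 0.174, 0.0415 and 1.45 CPM and to 25.2, 7.99, 14.4 and 17.2 CPM. All SPZ_EJ libraries were above all HGC libraries, and unlike the other H2A genes this one was highest in SPZ_EJ 1. The log2 fold change was 4.96 (SE 0.86, adjusted p = 0.00038 by edgeR), and the ratio of scaled counts was 36.6 with a counting interval of 26.2 to 52.7. The call held under each alternative, with log2 fold changes of 4.36 to 6.13. The leukocyte markers, at 7793, 5502, 4368 and 3168 CPM in SPZ_EJ 1 to 4, were also highest in SPZ_EJ 1, and 19 of 21 tested rose. The other libraries did not share an order, as the gene was lowest in SPZ_EJ 2 and the summed markers in SPZ_EJ 4. Within HGC the gene was highest in HGC 4, where the summed markers were lowest (530 CPM). Most of the HGC sum came from 1 feature, Saurata1B047082, at 552, 603, 562 and 449 CPM in HGC 1 to 4. Single markers did not all have the order of the sum in either group. The part of cells with these markers in the level of the H2A gene was not tested.

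A further H2A gene was found almost only in 2 libraries. Saurata1B018265 had 2, 1, 0 and 9 counts in HGC 1 to 4, 6 and 4 counts in SPZ_EJ 1 and 2, and 1461 and 3538 counts in SPZ_EJ 3 and 4. These are 81.5 and 162 CPM in SPZ_EJ 3 and 4 and at most 0.523 CPM in the other 6 libraries. It failed the filter on low counts, though DESeq2 (8.30, adjusted p = 0.0001) and edgeR with no filter called it higher. The study, which used DESeq2, names a late histone H2A mRNA and an H2B mRNA among those highly accumulated in SPZ_EJ. The product names used here do not show which genes these are. The exact permutation test over the 8 libraries, two-sided, gave p = 0.17 for the difference of groups. The summed H2A level was 2.82-fold higher in SPZ_EJ with this gene and 1.98-fold higher without it, at 61.3 to 90.4 CPM in HGC and 75.4, 142, 219 and 133 CPM in SPZ_EJ 1 to 4. With the gene left out, SPZ_EJ 1 fell within the HGC range and the other SPZ_EJ libraries lay above it.

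Histone H2AX (Saurata1B008526), the variant that is phosphorylated at DNA breaks, was near the limit of detection. Its counts were 2, 11, 25 and 18 in HGC and 12, 11, 40 and 86 in SPZ_EJ, or 0.143, 0.637, 1.04 and 1.05 CPM against 0.418, 0.715, 2.23 and 3.93 CPM. SPZ_EJ 3 and 4 were above all HGC libraries while SPZ_EJ 1 and 2 lay among them, and the log2 fold change of 1.33 (SE 0.81, adjusted p = 0.17 by edgeR) turned to -0.27 without SPZ_EJ 3 and 4. The other 4 tested H2A genes averaged 1.23 to 6.18 CPM in HGC and 1.87 to 8.15 CPM in SPZ_EJ, and the last, Saurata1B050615, had 5 counts in SPZ_EJ and 0 in HGC, which allows up to 0.0413 CPM over the HGC group (3 counts).

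Macro-H2A, a replacement variant with a large additional domain that is associated with silent chromatin, was represented by a pair of genes, of which 1 fell. Saurata1B036353 stood at 18.6, 18.1, 16 and 14.5 CPM in HGC and at 3.97, 2.99, 3.57 and 4.02 CPM in SPZ_EJ. The groups were far apart and each was tight, with means of 16.8 ± 1.90 and 3.64 ± 0.477 CPM (SD, n = 4 each). It fell 4.62-fold (log2 fold change -2.20 with SE 0.33 and adjusted p = 0.00013 in edgeR), and this was the fall with the smallest standard error among the histones. Under scaling by library size only it was -1.43 and missed the threshold (adjusted p = 0.014). Saurata1B014932 stood at 2.64, 2.43, 2.04 and 3.31 CPM in HGC and at 3.34, 1.95, 1.51 and 0.823 CPM in SPZ_EJ, with overlapping groups and a log2 fold change of -0.45 (SE 0.54, adjusted p = 0.48). The difference between the 2 genes was not tested.

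Of the 3 tested H2B genes 0 passed the test by edgeR, 0 had an unadjusted p under 0.05, and limma-voom called 0. Saurata1B051959 stood at 157, 93.3, 129 and 69.6 CPM in HGC and at 29.3, 106, 159 and 78.8 CPM in SPZ_EJ, so that the SPZ_EJ libraries alone spanned the whole HGC range (log2 fold change -0.26 with SE 0.46 and adjusted p = 0.62 in edgeR). Saurata1B003679 stood at 60.8, 39.8, 51.2 and 39.9 CPM in HGC and at 11.3, 35.5, 62.0 and 34.4 CPM in SPZ_EJ (log2 fold change -0.42 with SE 0.43 and adjusted p = 0.40). SPZ_EJ 1 was lowest and SPZ_EJ 3 highest in both. The signs of these values depended on the scaling, and under scaling by library size only they were 0.38 and 0.24. The third gene, Saurata1B024201, had a log2 fold change of 0.01. Summed over the 6 H2B genes, the level was 114 to 229 CPM in HGC and 42.7 to 239 CPM in SPZ_EJ.

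An H2B gene outside the filter, Saurata1B016438, resembled the H2A gene of SPZ_EJ 3 and 4. It had 0, 2, 2 and 0 counts in HGC and 2, 40, 72 and 199 counts in SPZ_EJ 1 to 4, and SPZ_EJ 2 was therefore also above HGC. The ratio of scaled counts was 67.6, with a counting interval of 26.2 to 250. The exact permutation test over the 8 libraries, two-sided, gave p = 0.086. DESeq2, which keeps such genes, called it higher, as did edgeR with no filter (5.36, adjusted p = 1.4e-05). In edgeR it was also called when any 1 HGC library was left out (5.45 to 6.38, adjusted p of 0.0054 to 0.0077). The same held without SPZ_EJ 1 (6.25, adjusted p = 0.00011). In these fits the filter required fewer libraries and admitted the gene through SPZ_EJ 2 to 4, where it was high. The calls are therefore no separate support for a difference of groups. Without SPZ_EJ 2, 3 or 4 it stayed outside the filter and was not tested. The remaining 2 H2B genes had 12 and 3 counts in all 8 libraries together.

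Only 1 of the 3 H3 genes was measurable. Saurata1B045765 stood at 34.0, 15.3, 18.1 and 11.4 CPM in HGC and at 3.76, 24.8, 20.2 and 9.46 CPM in SPZ_EJ. The groups overlapped, with the highest value in HGC 1 and the lowest in SPZ_EJ 1 (log2 fold change -0.44 with SE 0.55 and adjusted p = 0.49 in edgeR). The second H3 gene had at most 4 counts in a library. The centromeric H3 variant (Saurata1B027986), the counterpart of CENP-A that marks centromeres, had 2 counts in SPZ_EJ 4 and 0 counts elsewhere, so its level could not be compared at this depth.

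Of the 6 tested H4 genes, 5 had positive log2 fold changes and 1 rose. Saurata1B009527 stood at 21.4, 14.4, 12.8 and 21.5 CPM in HGC and at 21.6, 41.3, 89.8 and 54.6 CPM in SPZ_EJ. The groups did not overlap, but SPZ_EJ 1 exceeded the highest HGC library by under 1 CPM. Its log2 fold change was 1.57 (SE 0.42, adjusted p = 0.0060 by edgeR). The call was lost when any 1 of the 4 HGC libraries was left out (1.23 to 1.46, adjusted p of 0.020 to 0.040), without SPZ_EJ 3 (1.16, adjusted p = 0.018), without SPZ_EJ 3 and 4 together (0.94, adjusted p = 0.058) and with no filter on low counts (1.04, adjusted p = 0.16). Saurata1B011967, chosen after its values were seen, had the same order of SPZ_EJ libraries, at 6.75, 11.4, 27.9 and 15.1 CPM against 5.70 to 9.29 CPM in HGC, and did not pass (log2 fold change 1.03 with SE 0.44 and adjusted p = 0.058). It passed with limma-voom (1.36, adjusted p = 0.0064) and with edgeR under scaling by library size only (1.72, adjusted p = 0.0063). The other 4 tested genes ranged from -0.16 to 1.08, 1 of the 2 untested genes had 24 counts in HGC and 26 in SPZ_EJ, and the last had 0 counts in all 8 libraries. The class sum was 26.0 to 41.1 CPM in HGC and 34.0, 62.3, 133 and 79.9 CPM in SPZ_EJ 1 to 4, 2.35-fold higher.

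**Figure D3:**
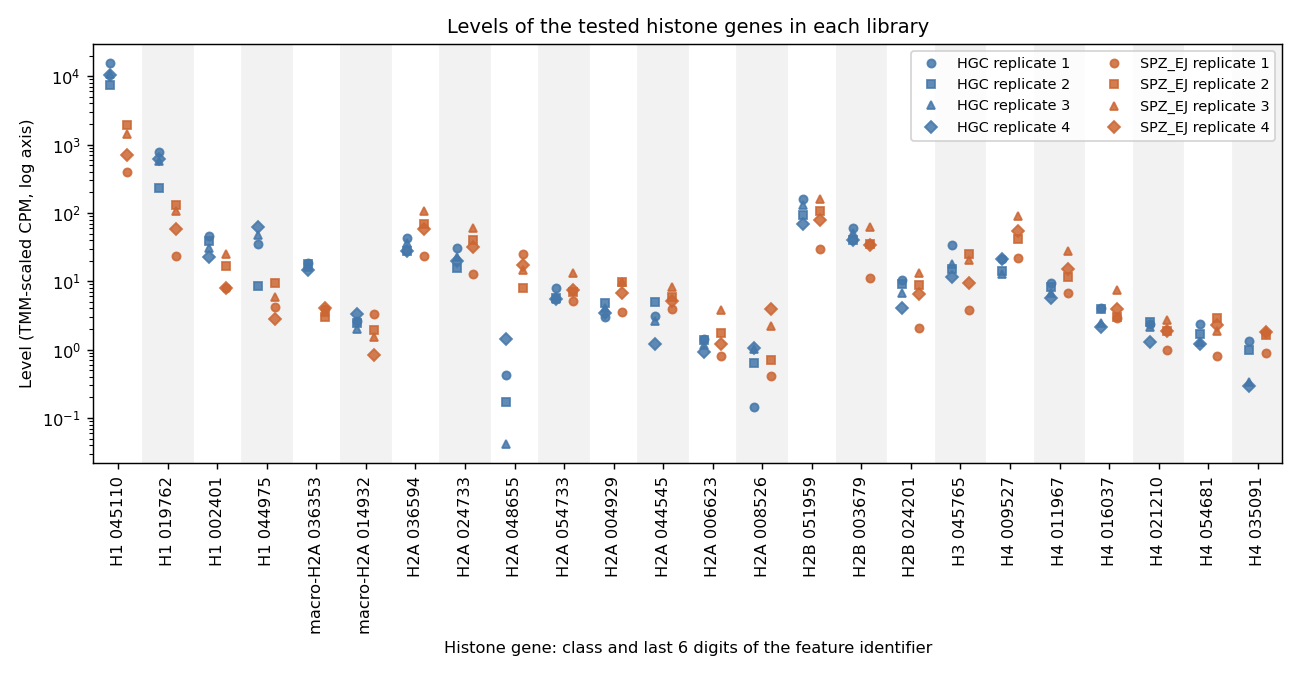
TMM-scaled CPM (log axis) of the 24 tested histone genes in each of the 8 libraries, HGC in blue and SPZ_EJ in orange, with 1 marker shape per replicate. Among the orange points of the 18 H2A, H2B, H3 and H4 columns, the circle (replicate 1) is lowest in 17 and the triangle (replicate 3) highest in 14, and in the H1 columns the blue points lie above nearly all orange points.

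Across core histone genes the SPZ_EJ libraries mostly had the same order. Over the 18 tested H2A, H2B, H3 and H4 genes, macro-H2A left aside, SPZ_EJ 3 was the highest SPZ_EJ library for 14 genes and SPZ_EJ 1 the lowest for 17. Under scaling by library size only, SPZ_EJ 3 was highest for 14 and SPZ_EJ 1 lowest for 11. Within HGC, replicate 1 was highest for 12 genes and replicate 4 lowest for 11. The log2 ratio of each SPZ_EJ library to the HGC mean, with 0.5 CPM added, had a median over the 18 genes of -0.36, 0.52, 1.22 and 0.49 in SPZ_EJ 1 to 4, with 4, 14, 18 and 12 genes above 0. The same median over protein-coding features was -0.35, -0.53, -0.30 and -0.14, so that core histones lay at the protein-coding median in SPZ_EJ 1 and above it in SPZ_EJ 2, 3 and 4. The linker histones did not share this order, with medians of -3.57, -1.79, -2.25 and -3.15. These genes share libraries, scaling and similar sequence and are not independent observations of the order.

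Of the features named for a histone that are not histones, 1 fell. The histone H4 transcription factor (Saurata1B015669), whose mammalian counterpart HINFP activates H4 genes at the start of S phase, stood at 53.8, 62.8, 64.0 and 58.0 CPM in HGC and at 10.4, 10.5, 17.7 and 22.8 CPM in SPZ_EJ. The groups were well separated, with a log2 fold change of -1.96 (SE 0.33, adjusted p = 0.0003 by edgeR), which missed the threshold under scaling by library size only (-1.20, adjusted p = 0.023). The H2A deubiquitinase MYSM1 (Saurata1B024853), which removes ubiquitin from H2A, had overlapping groups of 8.14 to 14.7 CPM in HGC and 9.99 to 15 CPM in SPZ_EJ and a log2 fold change of -0.00 (SE 0.33, adjusted p = 0.99).

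The proteins that carry newly made histones to DNA were examined as a list of histone chaperones, matched by product name. All 9 matched genes were tested, and 5 fell and 0 rose, where 31.9% of tested protein-coding features fell and 23.9% rose. The median log2 fold change of the list was -1.45 beside -0.29 over those features. The number that rose was also 0 at an unadjusted p under 0.05, with DESeq2 and with limma-voom. HIRA (Saurata1B048415), which deposits the replacement histone H3.3 outside replication, fell from 824, 495, 625 and 515 CPM in HGC to 16, 16.2, 16 and 6.95 CPM in SPZ_EJ (log2 fold change -5.48 with SE 0.40 and adjusted p = 1.7e-06 in edgeR). This was the largest fall in the list. DAXX (Saurata1B009735, named death domain-associated 6), another H3.3 chaperone, fell by 2.40 on the log2 scale, and the nucleosome assembly protein NAP1L4 (Saurata1B018847), an H2A-H2B chaperone, fell by 2.26. SSRP1 (Saurata1B044803), a subunit of the FACT complex that opens nucleosomes for polymerases, fell by 1.82, a call lost only under scaling by library size among the alternatives run for it. The subunit B of chromatin assembly factor 1 (Saurata1B046664), which deposits H3 and H4 behind the replication fork, fell by 1.29, and this call held in 14 of 18 alternatives.

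Of the chaperones that were not called, both NASP genes differed most between SPZ_EJ libraries. NASP, nuclear autoantigenic sperm protein, carries H1 and H3-H4. Saurata1B049256 stood at 40.6 to 51.4 CPM in HGC and at 17.5, 15.6, 132 and 234 CPM in SPZ_EJ 1 to 4, below all HGC libraries in SPZ_EJ 1 and 2 and above them in SPZ_EJ 3 and 4 (log2 fold change 1.1 with SE 0.72 and adjusted p = 0.19 in edgeR). Saurata1B049055 stood at 41.9 to 52.9 CPM in HGC and at 4.66, 2.47, 32.4 and 60.7 CPM in SPZ_EJ (log2 fold change -0.93 with SE 0.77 and adjusted p = 0.30). The chaperone ASF1B (Saurata1B020472) had a log2 fold change of -1.45 (adjusted p = 0.042) and nucleophosmin (Saurata1B013628) one of 0.24 (adjusted p = 0.64).

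Genes linked to the transcription of replication-dependent histone genes or to the stem-loop end of their mRNAs were examined in the same way. The list is not limited to genes specific to these mRNAs. Of 12 matched genes 9 were tested, of which 5 fell and 0 rose, where 31.9% of tested protein-coding features fell and 23.9% rose, and the median log2 fold change was -1.3 beside -0.29 over those features. The number higher was 0 at an unadjusted p under 0.05 and 0 with limma-voom, and 2 with DESeq2, both outside the filter used here. NPAT (Saurata1B017917), the activator that recruits transcription to histone gene clusters, fell from 90.8 to 150 CPM in HGC to 6.90 to 11.3 CPM in SPZ_EJ (log2 fold change -3.75 with SE 0.30 and adjusted p = 2.7e-06 in edgeR). The histone RNA hairpin-binding protein (Saurata1B008052), the counterpart of SLBP that binds the stem-loop, stood at 134, 121, 109 and 95 CPM in HGC and at 6.68, 5.52, 10.3 and 12 CPM in SPZ_EJ (log2 fold change -3.73 with SE 0.34 and adjusted p = 5.2e-06). The cleavage stimulation factor subunit 2 (Saurata1B008222) fell by 3.60 and CASP8-associated 2 (Saurata1B006621), the counterpart of the cleavage cofactor FLASH, fell by 2.60 on the log2 scale. Symplekin (Saurata1B032908), the scaffold of the cleavage complex, fell by 1.3, but this call held in 7 of 18 alternatives. The tested genes that were not called had log2 fold changes of -0.47 to 0.13. They comprised both tested features named for the endonuclease CPSF3, a zinc finger protein (Saurata1B028216) and the exoribonuclease 1 that trims the stem-loop end. Of the 2 genes that DESeq2 called higher, 1 was another symplekin feature (Saurata1B020904), with 1, 0, 0 and 0 counts in HGC and 55, 7, 8 and 9 counts in SPZ_EJ, named after its values were seen.

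**Figure D4:**
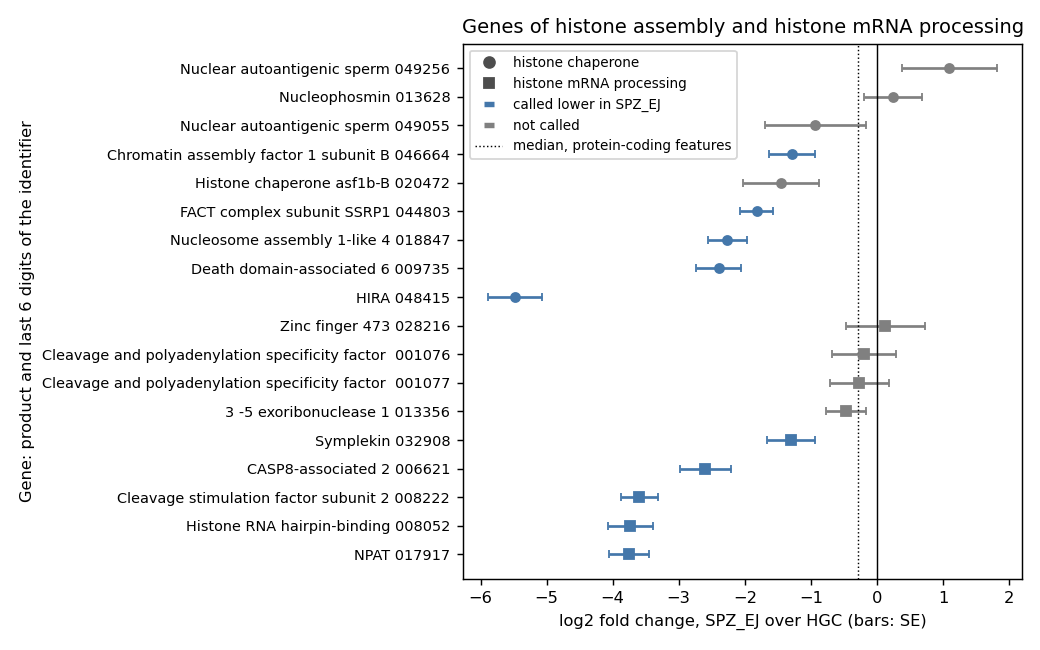
Log2 fold change of SPZ_EJ over HGC, with bars of 1 SE, for the tested histone chaperones (circles) and histone mRNA processing genes (squares), and the dotted line at the median of tested protein-coding features. In each list 5 of 9 tested genes fell and 0 rose, and HIRA is the lowest at -5.48.

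The other gene was a second hairpin-binding feature that was found almost wholly in SPZ_EJ 3 and 4. Saurata1B032948, also chosen after its values were seen, had 0, 0, 5 and 12 counts in HGC 1 to 4, 1 and 4 counts in SPZ_EJ 1 and 2, and 1556 and 4343 counts in SPZ_EJ 3 and 4, or 86.8 and 198 CPM in those libraries. It was outside the filter, and the exact permutation test, two-sided, gave p = 0.20. The same libraries held Saurata1B018265 (H2A), the higher levels of both NASP genes and the counts of FIGLA given above. In each of these 5 genes SPZ_EJ 4 was higher than SPZ_EJ 3, whereas the tested core histone genes were mostly highest in SPZ_EJ 3. The oocyte marker list as a whole summed to 40.6 and 71.2 CPM in SPZ_EJ 3 and 4 and to 14.5 to 38.8 CPM in the other libraries. Its part in the H2A and hairpin-binding values was not tested.

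**Figure D5:**
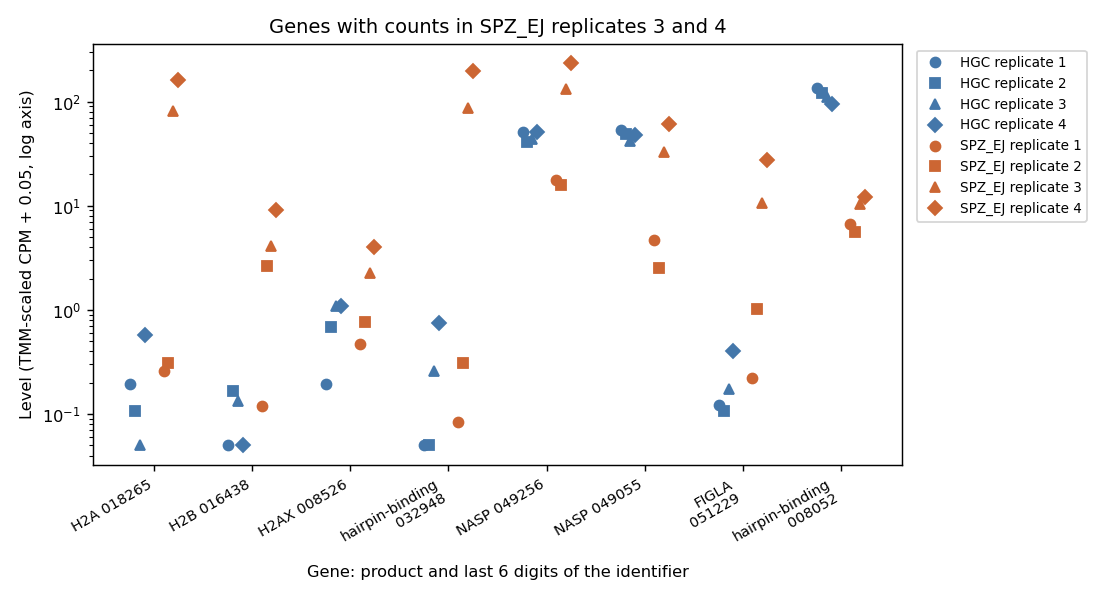
TMM-scaled CPM with 0.05 added (log axis) in each library for genes of histones, histone mRNA binding and histone transport, and for FIGLA, with 1 marker shape per replicate. The H2A gene Saurata1B018265, the hairpin-binding gene Saurata1B032948 and FIGLA lie above 10 CPM in SPZ_EJ 3 and 4 and at or under about 1 CPM in the other 6 libraries, and the other hairpin-binding gene (Saurata1B008052) is highest in HGC.

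Sperm nuclear basic proteins, the protamines and transition proteins that replace histones in many vertebrates, were looked for by product name and 0 features matched. The study likewise reports that it found no protamine mRNAs, and describes seabream spermatozoa as lacking protamines. The shift of histone transcripts could therefore not be set beside transcripts of such proteins.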

How the data were processed

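RNA-seq libraries of 4 HGC and 4 SPZ_EJ pools were primed with oligo-dT and amplified by the Smart-seq2 protocol without strand information. The authors aligned the reads with STAR 2.5.3a to their extended annotation, which was built in part from the same reads, and deposited RSEM 1.3.0 expected counts per gene as whole numbers without normalization. Paralogs share reads, and their division follows RSEM.

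Groups and replicate numbers came from the labels. Features were filtered with filterByExpr, scaled by TMM and tested with edgeR 4.0.16 (R 4.3.3). Its SE is the log2 fold change over the square root of F. Genes outside the filter were compared by an exact permutation test, which cannot give a p below 0.0286 with 4 libraries against 4. Counting intervals (95%) and the floor of 3 counts cover counting error only. Replicate pairs differed by 15.8 to 115 times the counting noise, and none was counted as a repeat. Figures and sums used Python 3.11.15.

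Histones were chosen by product name, and named genes were the 10 most abundant members, called members without overlap between groups, variants, members outside the filter with at least 100 counts in a library, and tested genes of the chaperone and mRNA processing lists. Members and lists were chosen with earlier results of these data known. Alternatives were DESeq2 1.42.0, limma 3.58.1 with voom and quality weights, other scalings and filters, another threshold, omission of the 20 most abundant features, each library left out, and a replicate block. Omission of SPZ_EJ 3 and 4 was added after the data were seen. No sequences are printed, because none was at hand for these identifiers.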

Additional observations from a re-analysis of the deposited data

Results flagged for a closer look

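In groups of 4 libraries, Dixon's ratio (the gap of the outermost library over the range of the group) was computed for 66 groups of members and partner genes and set against its critical value at 95%, which chance exceeds in about 1 of 20 groups. It was exceeded in 1 group. HIRA (Saurata1B048415) in SPZ_EJ had a ratio of 0.982, because SPZ_EJ 4 stood at 6.95 CPM and the other SPZ_EJ libraries at 16 to 16.2 CPM.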

How the results depend on the processing

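The number of histone genes called lower was 3 to 5 under all alternatives, beside 4 as reported. The number called higher, 2 as reported, was 4 with DESeq2, 4 with limma-voom and 4 with library size only, 1 with the replicate block and 1 without SPZ_EJ 3 and 4, and 1 to 4 with 1 library left out (1 without SPZ_EJ 3, 4 without SPZ_EJ 1). The median log2 fold change of 0.33 became 1.02 with library size only, 0.65 with DESeq2, 0.68 with upper-quartile scaling, 0.049 with no filter, 0.046 without SPZ_EJ 3 and 4 and 0.06 to 0.42 with 1 library left out. The mean percent of all counts held by the 33 histone genes was 0.926 in HGC and 0.188 in SPZ_EJ. It was 0.0938 and 0.0926 after omission of the 20 most abundant features, 1 of which is the H1 gene Saurata1B045110, and 0.292 of protein-coding counts in SPZ_EJ.

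Of 284 values of single genes under the alternatives, 248 kept their direction and side of the threshold, 12 fell below it, 7 passed it and 17 changed sign, all of the latter in genes that were not called. Their cause was not tested. Saurata1B051959 (H2B) was 0.014 with limma-voom, 0.38 with library size only and 0.10 with upper-quartile scaling. Saurata1B003679 (H2B) was 0.24 and Saurata1B014932 (macro-H2A) 0.31 with library size only. Without SPZ_EJ 3 and 4, Saurata1B014932 was 0.16 and H2AX (Saurata1B008526) was -0.27. MYSM1 (Saurata1B024853), at -0.00, was 0.034 with DESeq2, 0.039 with limma-voom, 0.14 with DESeq2 size factors, 0.76 with library size only, 0.33 with upper-quartile scaling, 0.082 without the 20 most abundant features, 0.0096 with the replicate block, -0.35 to 0.084 with 1 library left out (0.015 without SPZ_EJ 2) and 0.020 without SPZ_EJ 3 and 4.

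Across features, deviations of same-numbered libraries correlated at 0.01 to 0.10, and those of unlike-numbered libraries at -0.16 to 0.16. These values cannot show whether pools share males. No label ties the pools, and the replicate numbers were not taken as pairs. With the replicate block the median was 0.27, and the calls of Saurata1B009527 (1.43, adjusted p = 0.025 by edgeR) and Saurata1B044975 (-2.69, adjusted p = 0.011) were lost. Low counts limit the comparison of the 9 histone genes outside the filter, apart from Saurata1B018265 and Saurata1B016438. The counts of Saurata1B018265 lay almost wholly in SPZ_EJ 3 and 4, and Saurata1B016438 had 40, 72 and 199 counts in SPZ_EJ 2 to 4.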

Other observations

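A further 8 protein-coding features carry the product name histone with no class, belong to no group above and are not part of its sums and shares. Of these 7 were tested, 1 rose and 1 fell. Saurata1B007842 stood at 2.89 to 6.34 CPM in HGC and 20.9 to 35.3 CPM in SPZ_EJ (log2 fold change 2.69 with SE 0.37 and adjusted p = 8.1e-05 in edgeR), and Saurata1B001851 at 611 to 904 CPM in HGC and 67.8 to 90.4 CPM in SPZ_EJ (-3.26, SE 0.29, adjusted p = 4.2e-06). Among non-coding features, the 53 annotated histone mRNA stem-loops and the U7 small nuclear RNA, which guides stem-loop processing, had 0 counts in all libraries. Libraries primed with oligo-dT need not capture such features, so these counts cannot show whether the RNAs were absent.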
